A study of Mus musculus with 29 samples.

Results

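The interferon response and antigen presentation genes form a set of 33 genes, given by symbol, all of which were found among the 20411 genes of the count table. They were followed in hearts of BALB/c wildtype mice, 29 in all, each from a different animal. Every mouse had received an adeno-associated virus (AAV) intravenously. The vector carried a promoter for hepatocytes (Tbg) that drove either GFP or REV-ERBα, a nuclear receptor of the circadian clock that represses transcription. Mice then received C26 cells, a mouse colon carcinoma line that causes wasting, under the skin 10 days later, or PBS. The 4 groups were PBS_GFP (4 hearts), PBS_REV-ERBa (5), C26_GFP (10) and C26_REV-ERBa (10). The vector's promoter is made for liver, so the heart was not the organ meant to carry the transgene, and each library came from a piece of whole heart. Age, sex and the time from tumour cells to collection are not given in the labels.

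Interferons are secreted proteins that make cells hostile to viruses. Type I interferons act through Ifnar1 and Ifnar2, and interferon gamma acts through Ifngr1 and Ifngr2. Both receptors signal through Jak kinases to transcription factors. After type I interferon a complex that holds Stat2 and Irf9 reads the interferon-stimulated response element (ISRE), while the response to interferon gamma runs through the gamma-activated site (GAS). Among the products are antiviral effectors, guanylate-binding proteins, and the machinery that cuts proteins and shows the peptides on class I molecules at the cell surface. The 33 genes were grouped by these roles into 6 regulators and sensors, 15 antiviral effectors, 4 guanylate-binding proteins, 3 immunoproteasome subunits and 5 genes of peptide transport and class I presentation.

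The promoters were searched for both elements. The letters did not enter the choice of the 33 genes. The genes were chosen as interferon-response genes, however, so a high share of matches is not an independent result. RefSeq promoter windows (build GRCm38.p6) were matched by symbol for 25 of the 33 genes, and the 250 bases before each start site were read on both strands. The ISRE was searched as the letters GAAANNGAAA and the GAS as TTCNNNGAA. The ISRE letters stood in 11 of the 25 genes (44.0%), against 3.46% of 27025 genes with a window of the same length. The GAS letters stood in 6 of the 25 (24%), against 8.13% of all. Some windows held both, and 14 of the 25 (56.0%) held at least 1, against 11.1% of all. The 14 were Irf1 and Stat2 among the regulators, Ifit1, Ifit2, Ifit3, Isg15, Oas1a, Rsad2 and Bst2 among the antiviral effectors, Gbp2, Gbp3 and Gbp7, Psmb8, and B2m. A match is a description of letters and not a site shown to be used. Windows are printed for Stat2 and Gbp3, the genes past the threshold in a tumour comparison that held a match. Ifit3 was added after its values were seen. Capitals mark the ISRE letters, all of which read as the reverse complement on the strand printed, and the run of capitals in Gbp3 holds 2 overlapping matches.
Stat2 promoter, chr10:128270248-128270497, plus strand: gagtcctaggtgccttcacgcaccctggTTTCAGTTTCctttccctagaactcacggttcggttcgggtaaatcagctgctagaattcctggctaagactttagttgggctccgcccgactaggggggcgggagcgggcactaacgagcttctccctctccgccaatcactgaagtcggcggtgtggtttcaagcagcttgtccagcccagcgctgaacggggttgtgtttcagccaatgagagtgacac
Gbp3 promoter, chr3:142559794-142560043, plus strand: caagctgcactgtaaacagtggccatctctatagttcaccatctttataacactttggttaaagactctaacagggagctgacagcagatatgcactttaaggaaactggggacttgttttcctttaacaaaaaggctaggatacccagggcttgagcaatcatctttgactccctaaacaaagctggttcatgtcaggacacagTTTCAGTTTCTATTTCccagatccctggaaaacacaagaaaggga
Ifit3 promoter, chr19:34583279-34583528, plus strand: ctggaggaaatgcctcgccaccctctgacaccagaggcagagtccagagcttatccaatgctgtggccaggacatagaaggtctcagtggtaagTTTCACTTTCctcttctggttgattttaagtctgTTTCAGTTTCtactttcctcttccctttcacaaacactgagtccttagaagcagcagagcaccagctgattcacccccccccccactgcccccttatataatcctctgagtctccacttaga
Distances are to the RefSeq start that each window belongs to, which for Stat2 and Gbp3 lies before the start in the count table that is given with their values. The Stat2 match lay 222 to 213 bases before that start. In Gbp3 the first match lay 45 to 36 bases before it, and the other RefSeq window of that gene held none, and in Ifit3 the first of 2 lay 156 to 147 bases before it.

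Libraries held 3207497 to 16853646 counts, and 5 exceeded 10000000 (2 of PBS_GFP and 3 of C26_GFP). Of 20411 genes 12928 passed the filter on low counts, among them all 33. Levels are given as CPM, the usual depth-scaled counts, with a further scaling between libraries. Heart identity was clear, since the 7 cardiomyocyte markers summed to 31478 to 47368 CPM in every heart. In C26_GFP against PBS_GFP 3 of the 7 were called lower and 1 higher, against 14% and 14.2% of all genes. The 5 hepatocyte markers summed to 92.01 CPM in PBS_GFP heart 2 and to at most 1.435 CPM in the other PBS_GFP hearts. Their sums ran from 0 to 0.7778 CPM in PBS_REV-ERBa, 0.6445 to 23.33 CPM in C26_GFP and 0.8361 to 93.37 CPM in C26_REV-ERBa. The part of these markers in the 33 genes was not tested. In 8 hearts the mean of the atrial markers exceeded 5 on the log2 CPM scale (1 PBS_GFP, 1 PBS_REV-ERBa, 3 C26_GFP and 3 C26_REV-ERBa), and these hearts were left out in an alternative. Macrophage markers moved with the tumour: their 8 genes summed to 232 to 282 CPM in PBS_GFP and 295 to 458 CPM in C26_GFP. With the REV-ERBα vector the sums overlapped, at 200.4 to 283 CPM in PBS_REV-ERBa and 272 to 363 CPM in C26_REV-ERBa. The markers C1qa, C1qb, C1qc and Mrc1 were higher in both tumour comparisons (14.2% of all genes were with the GFP vector and 4.05% with the REV-ERBα vector). The other 4, Adgre1, Csf1r, Cd68 and Fcgr1, were called in neither. Between the tumour-bearing groups 2 of the 8 were lower with REV-ERBα (7.2% of all genes were called in either direction). Markers of natural killer and B cells were too low to test. The part of these cells in any result on the 33 genes was not tested, and in whole tissue fewer cells of a type cannot be told apart from less RNA per cell.

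The most abundant of the 33 per length were the class I genes. The mean over 29 hearts was 348 CPM per kilobase of counted length for H2-D1, a class I heavy chain. It was 132 for B2m, the light chain that every class I molecule needs, and 68.4 for H2-K1, another heavy chain. Ifi27l2a, a small interferon-induced protein, followed at 35.6 CPM per kilobase. Psmb10, Bst2, Tap2 and Gbp4 lay between 17.8 and 14.9. The least abundant were Dhx58 at 1.18, Mx2 at 0.907 and Mx1 at 0.393 CPM per kilobase. Many inbred mouse strains carry a defective Mx1. The H2-D1 and H2-K1 levels carry a further limit, because BALB/c mice have the d haplotype of these genes while mm10 is the C57BL/6J genome, which has the b haplotype. Of the 50-base stretches of the GENCODE transcripts, 12.8% for H2-D1 and 9.63% for H2-K1 also occurred in other genes. The same share was 57.6% for Oas1a, 51.2% for Ifit3 (with Ifit3b) and 12.7% for Gbp7, and the levels of these genes are uncertain to that extent. In the table Ifi27l2a, B2m and H2-D1 also overlapped another gene's span.

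**Figure D1:**
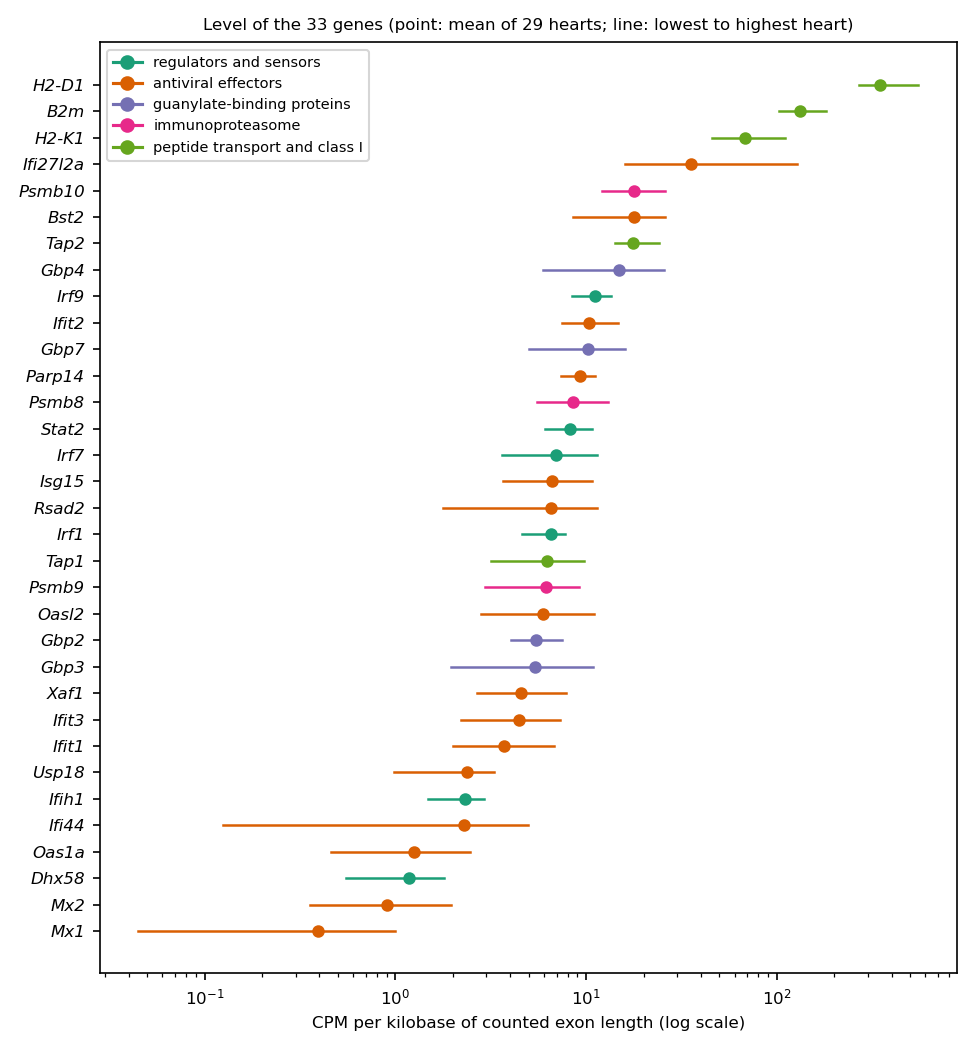
Level of each of the 33 genes in CPM per kilobase of counted exon length (log scale), with a point for the mean over 29 hearts and a line from the lowest to the highest heart, coloured by role. H2-D1, B2m and H2-K1 stand at the top with 348, 132 and 68.4, and Mx1 at the bottom with 0.393.

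Across the 33 genes, the tumour with the GFP vector moved few. In C26_GFP against PBS_GFP, 3 of 33 genes passed an adjusted p of 0.05 in edgeR's quasi-likelihood test, against 28.2% of all genes tested. H2-K1 was higher (14.2% of all genes were called higher) and Gbp3 and Psmb10 were lower (14% were called lower). The log2 fold changes of the 33 were positive for 17 and negative for 16, with a median of 0.02 against 0.00 for all genes. At an unadjusted p under 0.05 there were 6 of 33, against 39.1% of all genes. For 30 of the 33 genes the 95% interval lay within a 2-fold change in either direction, as for 86.5% of all genes. A 2-fold change in either direction thus lay outside the interval of these 30 genes.

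The tumour with the REV-ERBα vector was compared in the same way. Below, a change with the GFP or the REV-ERBα vector means the tumour effect among mice that received that vector. In C26_REV-ERBa against PBS_REV-ERBa, 3 of 33 genes were called, Stat2, Gbp4 and Tap1, all of them higher. The background was 7.23% of all genes, with 4.05% called higher and 3.19% called lower. Here 29 of 33 fold changes were positive, with a median log2 fold change of 0.28 against 0.00 for all genes, and 10 of 33 had an unadjusted p under 0.05 against 23.6% of all genes. The test of the difference between the tumour comparisons, the tumour by vector interaction, called 0 of 33 genes in edgeR (0% of all genes, with 4 of 33 at an unadjusted p under 0.05 against 10.5% of all genes, and 0 of 33 in DESeq2). The sets of calls are therefore not shown to differ.

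Between the tumour-bearing groups, C26_REV-ERBa against C26_GFP, no gene of the 33 was called by edgeR (7.2% of all genes were). DESeq2 called 2 of the 33, Ifit3 and Oasl2, and 1233 of all 12928 genes. The fold changes were positive for 29 of 33, with a median log2 fold change of 0.18 against 0.00 for all genes. At an unadjusted p under 0.05 there were 11 of 33 against 24.3% of all genes. Many of the 33 moved together from heart to heart. The signs counted here and in the second comparison are therefore not independent observations. The mean log2 CPM of the 33 per heart overlapped, at 3.54 to 4.33 in C26_GFP and 3.87 to 4.44 in C26_REV-ERBa. This comparison shares the C26_GFP hearts with the first and the C26_REV-ERBa hearts with the second. In mice without tumour, PBS_REV-ERBa against PBS_GFP, 0 of 33 genes were called by edgeR (0% of all genes) and 0 by DESeq2, with 1 of 33, Gbp4, at an unadjusted p under 0.05 against 4.1% of all genes.

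**Figure D2:**
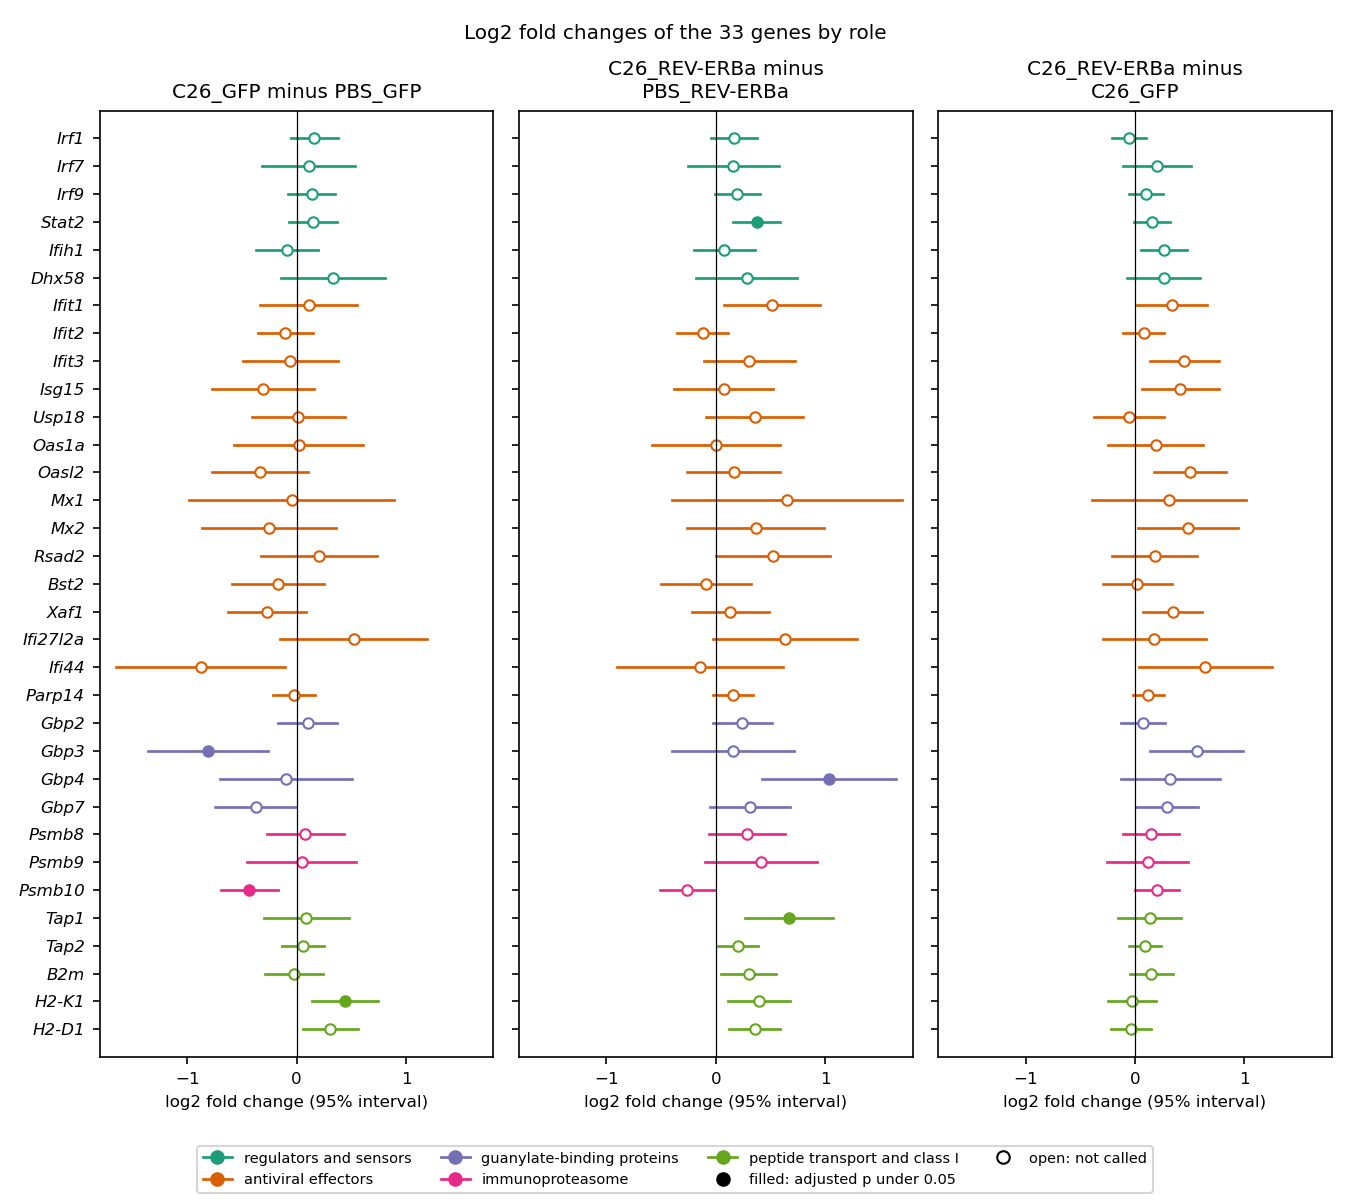
Log2 fold change of each gene with its 95% interval in C26_GFP minus PBS_GFP, C26_REV-ERBa minus PBS_REV-ERBa and C26_REV-ERBa minus C26_GFP, coloured by role, with filled points where the adjusted p was under 0.05. Filled points are Gbp3, Psmb10 and H2-K1 on the left, Stat2, Gbp4 and Tap1 in the middle and none on the right, where 29 of 33 points lie above 0.

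Among the regulators and sensors, Stat2, a transcription factor of the type I complex, was called in 1 comparison. Stat2 (chr10:128270576-128292849 of mm10) stood at 35.4, 29.2, 35.9 and 29.1 CPM in the 4 PBS_GFP hearts. In the 5 PBS_REV-ERBa hearts it was 27.6, 31.9, 26.7, 30.3 and 37.9 CPM. C26_GFP hearts had lowest, median and highest levels of 29.5, 35.9 and 43.1 CPM, and the C26_REV-ERBa hearts 33.6, 40.1 and 47.2 CPM. Only the fifth PBS_REV-ERBa heart reached into the C26_REV-ERBa range, so those groups overlapped through 1 control heart. Stat2 rose in C26_REV-ERBa against PBS_REV-ERBa by 0.37 ± 0.10 on the log2 scale (SE, edgeR adjusted p = 0.0269). In C26_GFP against PBS_GFP its log2 fold change was 0.15 ± 0.11 (edgeR adjusted p = 0.311). The call was lost without any one of PBS_REV-ERBa hearts 1, 2, 3 or 4 (adjusted p = 0.0511 to 0.0819) and without the hearts with high atrial markers (adjusted p = 0.117).

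Ifih1, a cytoplasmic sensor of long double-stranded RNA, had the smallest unadjusted p of this role between the tumour-bearing groups and was not called. Its lowest, median and highest C26_GFP hearts had 8.22, 11.3 and 15.6 CPM, and the C26_REV-ERBa hearts 11.2, 14.1 and 16.0 CPM. The ranges overlapped over most of their length, and the log2 fold change was 0.26 ± 0.10 (edgeR adjusted p = 0.114). The other 4 genes of the role were not called in any comparison. Irf1, the interferon gamma-induced transcription factor, had group means of 12.7 to 14.8 CPM. Irf7, the factor that amplifies type I interferon, had means of 10.8 to 13.6 CPM but ranged from 6.37 to 18.6 CPM among the C26_GFP hearts alone. Irf9, the DNA-binding part of the type I complex, had means of 25.6 to 30.3 CPM, and Dhx58, a regulator of the RNA sensors, means of 2.13 to 3.29 CPM.

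None of the 15 antiviral effectors was called in any comparison by edgeR. With the GFP vector 5 of their 15 tumour fold changes were positive and 10 negative, and with the REV-ERBα vector 12 were positive. Oasl2, a relative of the oligoadenylate synthetases, and Ifit3, of a family of proteins that bind foreign RNA, had the smallest p values of the role. Oasl2 (chr5:114896934-114912245) stood at 20.1, 13.8, 26.4 and 18.3 CPM in PBS_GFP hearts and at 19.3, 15.7, 15.3, 19.7 and 25.5 CPM in PBS_REV-ERBa hearts. Lowest, median and highest levels were 8.78, 14.3 and 21.8 CPM in C26_GFP, and the C26_REV-ERBa hearts 15.4, 20.6 and 34.6 CPM. Thus 6 C26_GFP hearts lay under the lowest C26_REV-ERBa heart, while the rest overlapped. The log2 fold change of Oasl2 between the tumour-bearing groups was 0.50 ± 0.16 (edgeR adjusted p = 0.0537), just outside the threshold.

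Ifit3 (chr19:34583529-34588982), whose promoter with 2 ISRE matches is printed above, stood at 9.35, 5.68, 9.47 and 8.43 CPM in PBS_GFP hearts. In PBS_REV-ERBa hearts it was 7.37, 7.53, 8.59, 11.1 and 8.17 CPM. From lowest over median to highest, C26_GFP hearts had 4.40, 8.11 and 11.0 CPM, and the C26_REV-ERBa hearts 6.88, 9.95 and 14.5 CPM. The ranges overlapped broadly. The log2 fold change of Ifit3 between the tumour-bearing groups was 0.45 ± 0.16 (edgeR adjusted p = 0.0686), and C26_GFP against PBS_GFP it was -0.06 ± 0.21 (adjusted p = 0.882).

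The remaining effectors are given by their means. Ifit2 and Parp14, the most abundant in CPM, had group means of 38.7 to 44.5 and 64.0 to 71.6 CPM. Isg15, the ubiquitin-like modifier, had means of 4.16 to 5.53 CPM, and Usp18, which removes it, 3.28 to 4.48 CPM. Rsad2, also called viperin, had means of 19.6 to 28.4 CPM and Bst2, the tether that holds virions at the cell surface, 13.2 to 14.8 CPM. Ifi44 had the widest spread of the 33 genes, with a within-group SD of 0.84 in log2 CPM. It had a median of 8.10 CPM in PBS_GFP and 4.49 CPM in C26_GFP, where it ran from 0.364 CPM (2 counts, in heart 7) to 7.80 CPM, and a log2 fold change of -0.88 ± 0.38 that was not called (edgeR adjusted p = 0.0829). Xaf1, Ifit1 and Mx2 had means of 10.2 to 12.97, 8.28 to 11.7 and 1.86 to 2.61 CPM. Oas1a and Mx1 stayed under 5 CPM in every heart.

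The guanylate-binding proteins, large GTPases that interferon gamma induces and that attack the membranes around pathogens, held 2 called genes. Gbp3 (chr3:142560052-142573212) stood at 30.3, 11.6, 22.1 and 15.7 CPM in PBS_GFP hearts and at 17.2, 13.9, 10.9, 14.9 and 19.1 CPM in PBS_REV-ERBa hearts. The lowest, median and highest C26_GFP hearts had 5.46, 9.79 and 18.9 CPM, and the C26_REV-ERBa hearts 10.2, 16.3 and 23.7 CPM. In C26_GFP, 6 of 10 hearts lay under the lowest PBS_GFP heart and 4 lay within the PBS_GFP range. Gbp3 fell by 0.81 on the log2 scale in C26_GFP against PBS_GFP (SE 0.27, edgeR adjusted p = 0.0225). Without PBS_GFP heart 1, the highest of all, its log2 fold change was -0.46 (adjusted p = 0.304), and without PBS_GFP heart 3 -0.77 (adjusted p = 0.0554). It was also not called in a fit of those groups alone (adjusted p = 0.0683). Between the tumour-bearing groups its log2 fold change was 0.56 ± 0.21 (adjusted p = 0.0937).

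Gbp4 (chr5:105115767-105139586) stood at 117, 37.2, 84.6 and 41.3 CPM in PBS_GFP hearts and at 38.7, 35.6, 30.9, 49.0 and 46.9 CPM in PBS_REV-ERBa hearts. Lowest, median and highest levels were 26.9, 54.8 and 112 CPM in C26_GFP, and the C26_REV-ERBa hearts 49.8, 86.0 and 103 CPM. All 10 C26_REV-ERBa hearts lay above all 5 PBS_REV-ERBa hearts, the nearest pair being 49.8 against 49.0 CPM. C26_GFP and PBS_GFP overlapped throughout, and each held low and high hearts with few between. Gbp4 rose in C26_REV-ERBa against PBS_REV-ERBa by 1.03 ± 0.30 on the log2 scale (edgeR adjusted p = 0.0333). The call was lost without PBS_REV-ERBa heart 1, 2, 3 or 5 or C26_REV-ERBa heart 2 (adjusted p = 0.0539 to 0.0809) without the hearts with high atrial markers (0.0846), and in a robust fit (0.0506). With the GFP vector its log2 fold change was -0.10 ± 0.29, and 0.32 without PBS_GFP heart 1.

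The 3 smallest p values of the difference between the tumour effects belonged to this role. The interaction term was 1.13 ± 0.41 on the log2 scale for Gbp4, 0.97 ± 0.38 for Gbp3 and 0.69 ± 0.25 for Gbp7. None of the 3 passed after adjustment (edgeR adjusted p = 0.365, 0.388 and 0.366). Gbp7, a neighbour of Gbp3 on chromosome 3, had group means of 50.7 to 66.6 CPM, and Gbp2, in the same cluster, of 12.1 to 14.2 CPM. Neither was called in any comparison.

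**Figure D3:**
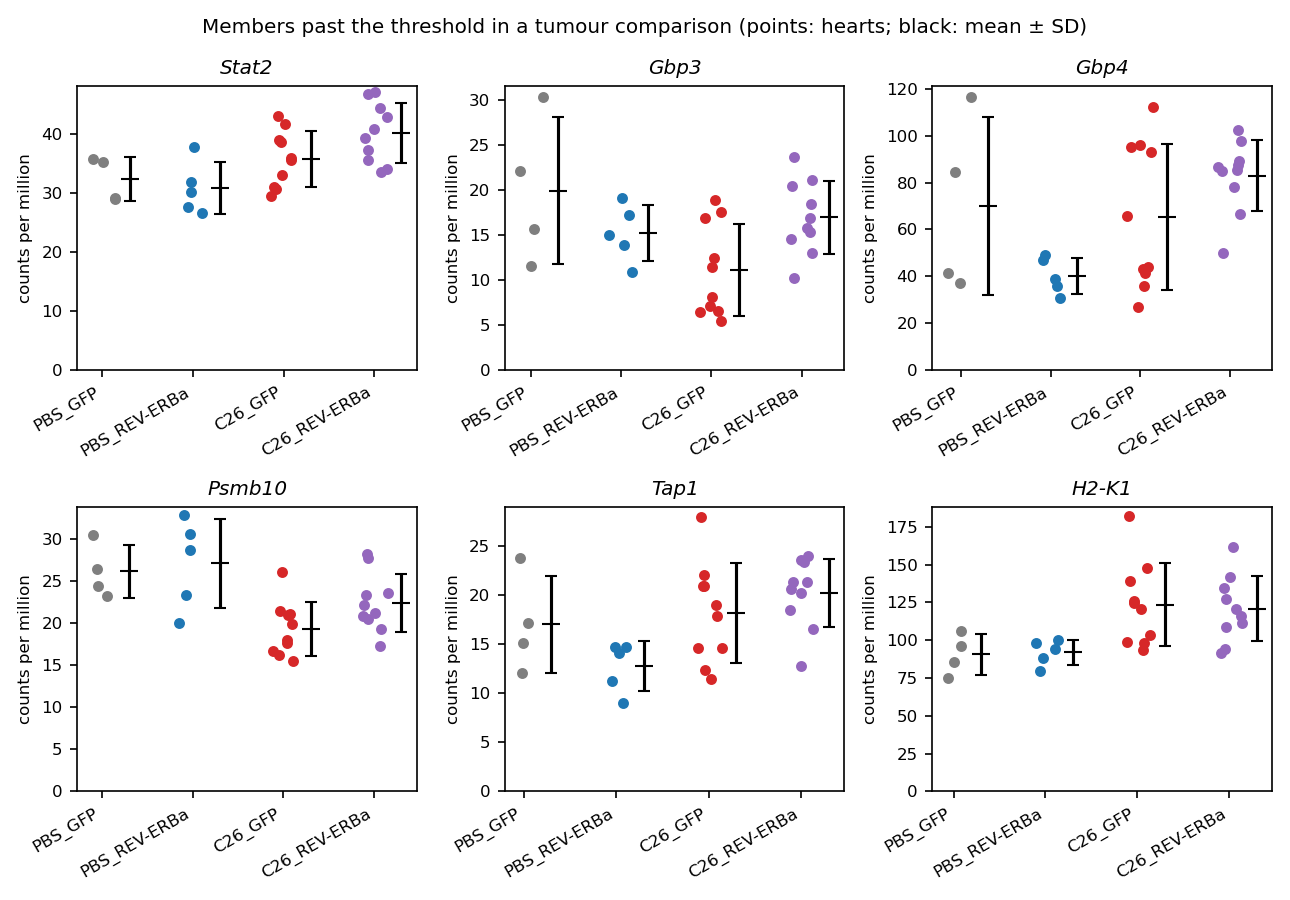
CPM of the 6 genes called in a tumour comparison, with a point for each heart and the mean ± SD of its group in black. Gbp4 lies between 30.9 and 49.0 CPM in all PBS_REV-ERBa hearts and between 49.8 and 103 CPM in all C26_REV-ERBa hearts, while PBS_GFP spreads from 37.2 to 117 CPM and C26_GFP from 26.9 to 112 CPM.

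In the immunoproteasome, interferon swaps 3 catalytic subunits of the proteasome for Psmb8, Psmb9 and Psmb10, which changes the peptides it makes. Psmb10 (chr8:105935728-105938392) stood at 30.4, 24.4, 26.4 and 23.3 CPM in PBS_GFP hearts and at 32.8, 28.7, 19.96, 23.4 and 30.5 CPM in PBS_REV-ERBa hearts. From lowest over median to highest, C26_GFP hearts had 15.5, 18.9 and 26.1 CPM, and the C26_REV-ERBa hearts 17.3, 21.6 and 28.2 CPM. In C26_GFP 9 of 10 hearts lay under all PBS_GFP hearts, and heart 6 lay among them. Psmb10 fell by 0.43 on the log2 scale in C26_GFP against PBS_GFP (SE 0.13, edgeR adjusted p = 0.0115). The call was lost without PBS_GFP heart 1 (log2 fold change -0.33, adjusted p = 0.102), without libraries above 10000000 counts (adjusted p = 0.0728) and, with a log2 fold change of -0.25, when all libraries were thinned to the smallest total (adjusted p = 0.203). With the REV-ERBα vector the log2 fold change was -0.26 ± 0.12 (adjusted p = 0.203).

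Psmb8 and Psmb9 did not pass in any comparison. Psmb8 stood at 11.4, 7.48, 10.6 and 9.59 CPM in PBS_GFP hearts and at 6.75, 10.1, 9.52, 10.4 and 9.72 CPM in PBS_REV-ERBa hearts. C26_GFP hearts had lowest, median and highest levels of 7.92, 9.50 and 15.5 CPM, and the C26_REV-ERBa hearts 7.78, 11.5 and 15.9 CPM. All groups overlapped, with log2 fold changes of 0.08 ± 0.17 (edgeR adjusted p = 0.763) and 0.29 ± 0.17 (adjusted p = 0.31) with the GFP and the REV-ERBα vector. Psmb9 had group means of 4.15 to 5.45 CPM. Of the constitutive subunits that these genes replace, Psmb5, Psmb6 and Psmb7, none of 3 was called in any comparison.

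Peptide transport and class I presentation held 2 called genes. H2-K1 (chr17:33996012-34000333) stood at 106, 74.8, 96.4 and 85.5 CPM in PBS_GFP hearts and at 98.2, 100.0, 88.0, 79.5 and 94.3 CPM in PBS_REV-ERBa hearts. The lowest, median and highest C26_GFP hearts had 93.5, 123 and 182 CPM, and the C26_REV-ERBa hearts 91.4, 118 and 161 CPM. In C26_GFP 6 of 10 hearts lay above all PBS_GFP hearts. H2-K1 rose by 0.45 ± 0.15 on the log2 scale in C26_GFP against PBS_GFP (edgeR adjusted p = 0.0228). The call was lost without the hearts with high atrial markers (log2 fold change 0.24, adjusted p = 0.234), without libraries above 10000000 counts (0.37, adjusted p = 0.235) and without PBS_GFP heart 2 or 4 (adjusted p = 0.114 and 0.066). With the REV-ERBα vector its log2 fold change was 0.40 ± 0.14 (adjusted p = 0.0746).

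H2-D1 had a like pattern without passing. Its means were 206 ± 20.5 CPM (SD, n = 4) in PBS_GFP, 195 ± 11.2 (n = 5) in PBS_REV-ERBa, 255 ± 49.0 (n = 10) in C26_GFP and 248 ± 39.2 (n = 10) in C26_REV-ERBa. The log2 fold changes of H2-D1 were 0.31 ± 0.12 (edgeR adjusted p = 0.0589) and 0.35 ± 0.12 (adjusted p = 0.0564) with the GFP and the REV-ERBα vector. B2m had group means of 99.7 to 123 CPM and a log2 fold change of -0.02 ± 0.13 with the GFP vector and 0.30 ± 0.12 with the REV-ERBα vector (adjusted p = 0.922 and 0.128). Tap2, the partner of Tap1 in the peptide pump, had means of 40.6 to 46.8 CPM and, with a within-group SD of 0.16 in log2 CPM, the smallest spread of the 33 genes.

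Tap1 (chr17:34187556-34197225), which pumps peptides into the endoplasmic reticulum, stood at 23.8, 12.1, 17.2 and 15.1 CPM in PBS_GFP hearts. In PBS_REV-ERBa hearts it was 14.1, 14.8, 9.05, 11.3 and 14.8 CPM. From lowest over median to highest, C26_GFP hearts had 11.5, 18.4 and 28.0 CPM, and the C26_REV-ERBa hearts 12.8, 21.0 and 24.05 CPM. In C26_REV-ERBa 9 of 10 hearts lay above all PBS_REV-ERBa hearts, and heart 5 lay among them. Tap1 rose in C26_REV-ERBa against PBS_REV-ERBa by 0.67 ± 0.20 on the log2 scale (edgeR adjusted p = 0.0359). Leaving out any of the 5 PBS_REV-ERBa hearts or C26_REV-ERBa heart 2 lost the call (adjusted p = 0.0527 to 0.101), as did leaving out the hearts with high atrial markers (0.13). With the GFP vector its log2 fold change was 0.09 ± 0.19, and -0.22 without the hearts with high atrial markers. Tap1 and Psmb9 lie head to head on chromosome 17 with 225 bases between their starts. In C26_GFP heart 3 was highest for both (28.0 and 7.402 CPM) and heart 7 lowest for both (11.5 and 2.37 CPM). Those hearts were also highest for 14 and lowest for 11 of the 33 genes. In PBS_GFP heart 1 was highest and heart 2 lowest for both. In C26_REV-ERBa Tap1 was highest in heart 1 and lowest in heart 5, but Psmb9 highest in heart 6 and lowest in heart 10. Their extremes also differed in PBS_REV-ERBa.

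Hearts of 1 group differed in these genes. The median biological coefficient of variation was 21.1% for the 33 and 11% for all genes tested, and 20 of the 33 lay above the trend for genes of their own level. That trend itself ran from 12.2% for B2m to 30.7% for Mx1, so part of the gap to 11% goes with level. The share of all genes above their trend was not counted. Irf1 (7.8%), Tap2 (10.3%), Irf9 (10.4%) and Parp14 (10.6%) lay under the median of all genes. In C26_GFP the same hearts were high for many genes. Heart 3 and heart 6 each held the highest value of the group for 14 of 33 genes and were among the top 3 for 29. Hearts 7 and 10 held the lowest value for 11 and 9 genes. The mean log2 CPM of the 33 genes was 4.33 and 4.28 in hearts 3 and 6 and 3.54 and 3.60 in hearts 7 and 10. In C26_REV-ERBa heart 7 held the highest value for 13 genes and heart 5 the lowest for 12, with means of 4.44 and 3.87. In PBS_GFP heart 1 was highest for 17 genes and heart 2 lowest for 16, and in PBS_REV-ERBa heart 3 was lowest for 16. The 2 extremes of PBS_GFP are both among the libraries above 10000000 counts.

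**Figure D4:**
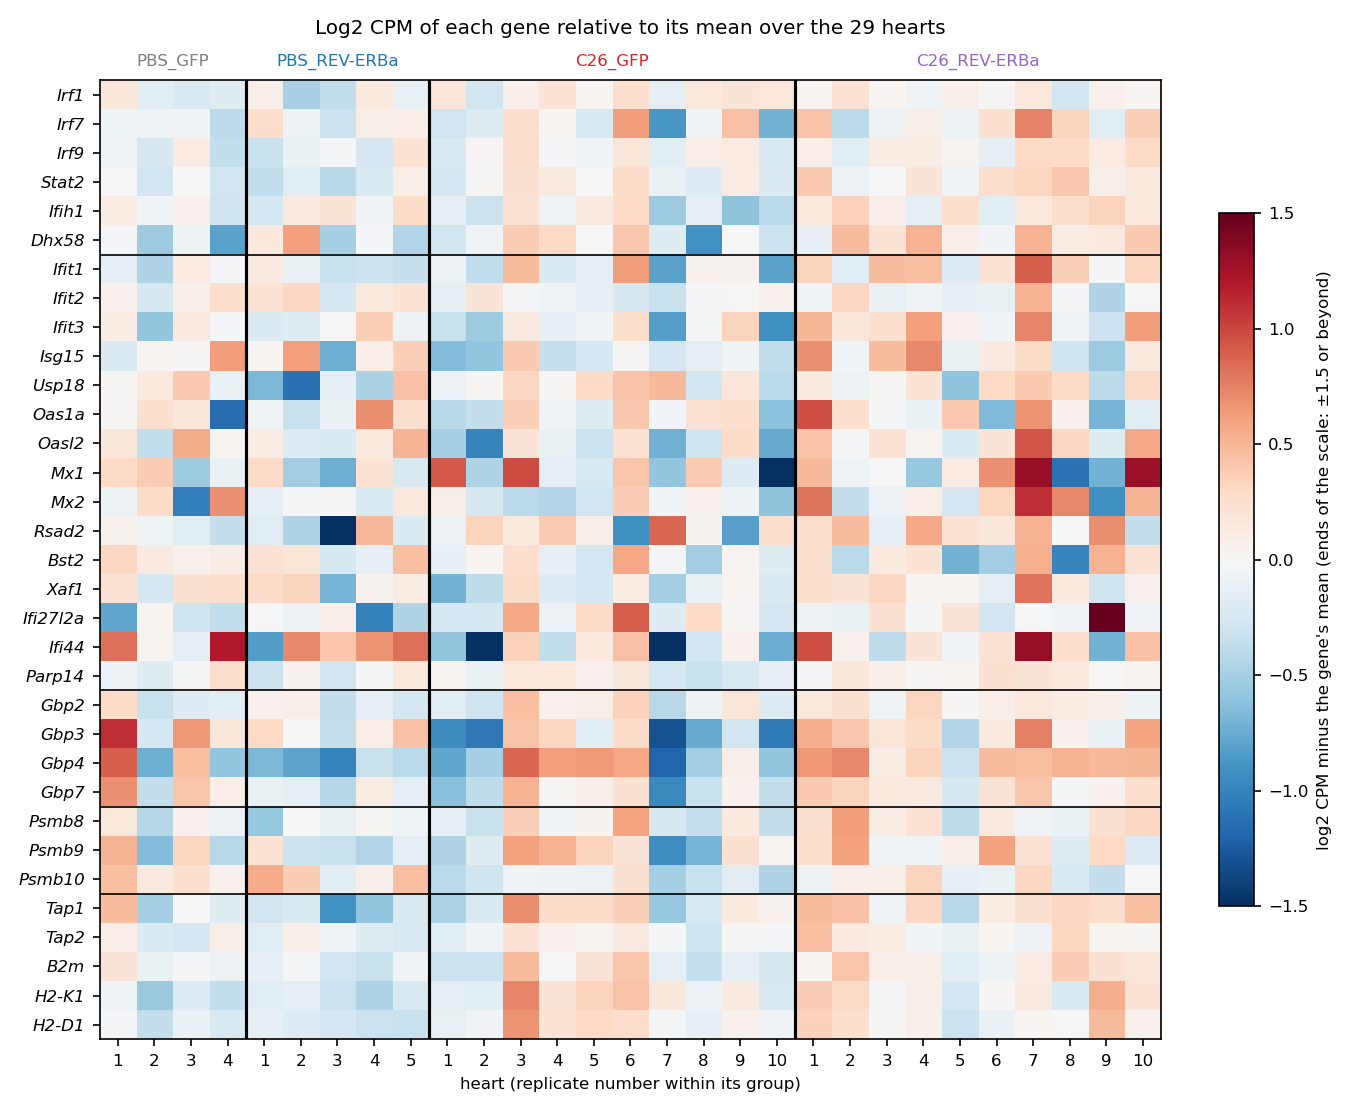
Log2 CPM of each of the 33 genes (rows, by role) in each of 29 hearts (columns, by group and replicate number), relative to the gene's mean over all hearts. Columns 3 and 6 of C26_GFP are red for most genes and columns 7 and 10 blue, while Rsad2 runs the other way in hearts 6 and 7 (12.2 and 43.0 CPM).

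Other markers moved across the same hearts. Serpina3n, an acute-phase protease inhibitor, was at 216 and 218 CPM in C26_GFP hearts 3 and 6 and at 789 and 636 CPM in hearts 7 and 10. Cdkn1a, a cell-cycle inhibitor, was at 86.9 and 36.1 CPM in hearts 3 and 6 and at 446 and 354 CPM in hearts 7 and 10. The 7 T cell markers summed to 14.4 and 14.8 CPM in hearts 7 and 10 and to 2.36 to 5.08 CPM in the other 8 C26_GFP hearts. Of the 7 only Cd3e had enough counts to test. Cd3d, Cd3g, Cd4, Cd8a, Cd8b1 and Lck had at most 2, 3, 17, 8, 2 and 9 counts in any library. The sums therefore do not show a rise of each marker. Other cell lists did not all run the same way. The 4 monocyte markers summed to 4.37 and 6.16 CPM in hearts 7 and 10 and to 9.91 and 13.5 CPM in hearts 3 and 6. The 4 general leukocyte markers summed to 25.1 and 32.3 CPM against 39.0 and 52.4 CPM. The 6 dendritic cell markers went with the T cell markers, at 21.8 and 19.7 CPM against 12.5 and 11.7 CPM. These values were looked up after the hearts had been seen to stand apart, and their part in the levels of the 33 genes was not tested.

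The receptors and kinases around the 33 genes were taken from a list of 15, all tested. With the GFP vector 4 were higher and 1 lower in the tumour-bearing hearts, where 28.2% of all genes were called (14.2% higher and 14% lower). Ifngr2, the signalling chain of the interferon gamma receptor, fell by 0.75 on the log2 scale (SE 0.13, edgeR adjusted p = 9.09e-05), from 282 ± 18.5 CPM (SD, n = 4) to 167 ± 33.2 CPM (n = 10). Its PBS_GFP hearts were at 306, 266, 286 and 269 CPM and the C26_GFP hearts had a lowest of 121, a median of 165 and a highest of 217 CPM, so the groups did not overlap. Between the tumour-bearing groups Ifngr2 was higher by 0.41 ± 0.10 with REV-ERBα (adjusted p = 0.018), at 222 ± 40.3 CPM (n = 10), and against PBS_REV-ERBa its log2 fold change was -0.33 ± 0.12 (adjusted p = 0.0926). Ifngr1, the binding chain, was not called, with group means of 71.9 to 76.3 CPM. Ifnar1 rose by 0.22 ± 0.06 with the GFP vector (adjusted p = 0.00949), and Ifnar2 was at 31.1 to 35.0 CPM with no call. The transcription factors Irf8, Irf3 and Irf2 rose with the GFP vector by 0.49 ± 0.12, 0.25 ± 0.06 and 0.30 ± 0.09 on the log2 scale (adjusted p = 0.00198, 0.00391 and 0.00973). Irf2 is named outside the rule, after its value was seen, to complete the 4.

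The ligands themselves were at the floor. None of 10 interferon genes could be tested. Ifnb1 had 0 counts in all 29 libraries, which allows at most 0.0144 CPM over their summed counts (3 counts, counting error only), and Ifng had 2 counts in all. The inducible chemokines were also too low to test, with 152 counts over all libraries for Cxcl9, 68 for Cxcl10, 24 for Ccl5 and 11 for Cxcl11.

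Ifngr2 was then compared with the 33 genes heart by heart within each tumour-bearing group, a choice made after its values had been seen. Pearson's r on log2 CPM was tested with 100000 permutations and adjusted over 12927 genes. Among the 10 C26_GFP hearts r was positive for 31 of 33 genes with a median of 0.56, against 51.6% of all genes and a median of 0.02. Irf7, Ifit3 and Oasl2 passed (3 of 33, against 5.73% of all genes). For Irf7 r was 0.94 (permutation p = 0.00021, adjusted 0.0193) and Spearman's rho 0.90 (permutation p = 0.00089, adjusted 0.0434), and r was 0.88 without the 2 hearts farthest from the median of Ifngr2. For Ifit3 r was 0.92 (permutation p = 0.00036, adjusted 0.0222), rho 0.84 (permutation p = 0.00347, adjusted 0.0777) and r without the 2 hearts 0.87. For Oasl2 r was 0.86 (permutation p = 0.00178, adjusted 0.0407), rho 0.89 (permutation p = 0.00129, adjusted 0.0499) and r without the 2 hearts 0.84. Rsad2 was the only gene under -0.5, at -0.83 (permutation p = 0.00365, adjusted 0.0562), and Ifit2 was at -0.08.

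Among the 10 C26_REV-ERBa hearts 22 of 33 values of r were positive with a median of 0.33, against 49.7% of all genes and a median of -0.003. Without the 2 farthest hearts the median of the 33 was 0.13, and in C26_GFP it was 0.43. In C26_REV-ERBa 1 of 33 passed against 1.51% of all genes. It was again Ifit3, with r = 0.90 (permutation p = 0.00029, adjusted 0.0371), rho = 0.92 (permutation p = 0.00053, adjusted 0.0629) and r = 0.81 without the 2 farthest hearts. Irf7 was at 0.63 and Oasl2 at 0.67 there (permutation p = 0.0483 and 0.0347, adjusted 0.264 and 0.227). The class I genes B2m, H2-D1 and H2-K1 had r of 0.44, 0.36 and 0.42 in C26_GFP and -0.41, -0.37 and -0.27 in C26_REV-ERBa, with no call. Over the 7 C26_GFP hearts with low atrial markers r was 0.94 for both Irf7 and Ifit3 and 0.88 for Oasl2. Over the 7 C26_GFP libraries under 10000000 counts it was 0.93, 0.94 and 0.83. Over the 7 C26_REV-ERBa hearts with low atrial markers r was 0.85 for Ifit3. The 2 genes of each pair are measured in the same library, and no difference between the groups in r was tested. Ifngr2 also ran against Cdkn1a. In C26_GFP hearts 6 and 9 Ifngr2 was at 217 and 217 CPM and Cdkn1a at 36.1 and 30.9 CPM. In hearts 7 and 10 they were at 121 and 126 CPM and at 446 and 354 CPM. C26_REV-ERBa hearts 7 and 9 had 285 and 149 CPM of Ifngr2 and 17.8 and 112 CPM of Cdkn1a. The part of Cdkn1a, or of other genes that vary across these hearts, in the values of r was not tested.

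**Figure D5:**
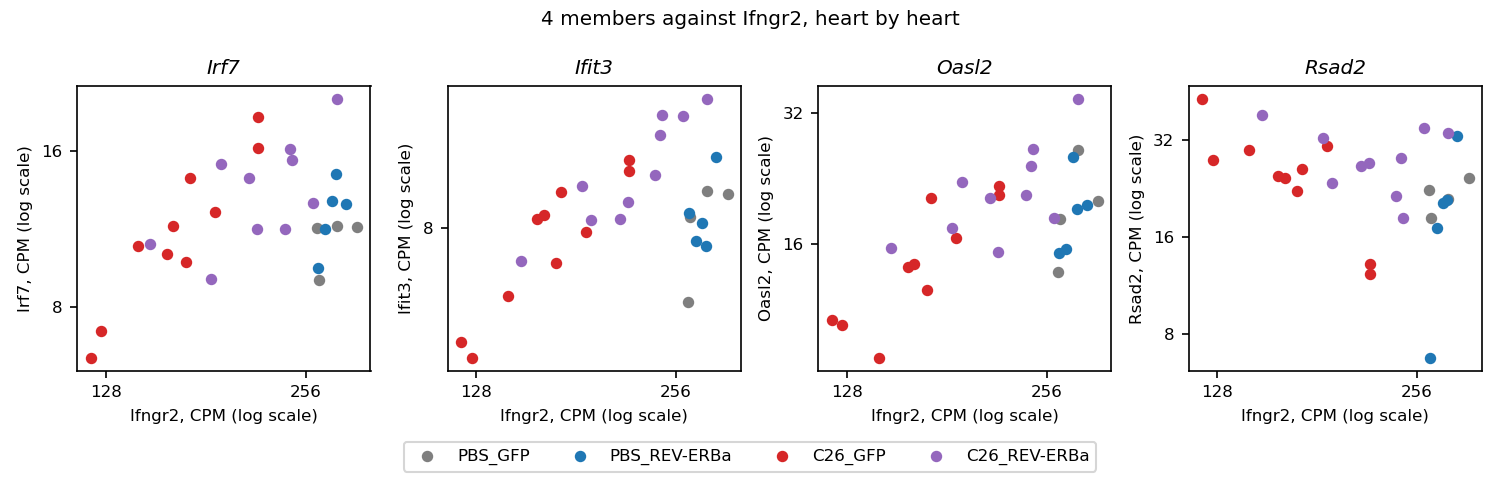
CPM of Irf7, Ifit3, Oasl2 and Rsad2 against CPM of Ifngr2 (both axes on log scales), with 1 point per heart coloured by group. In C26_GFP Irf7, Ifit3 and Oasl2 are higher in hearts with more Ifngr2 (r = 0.94, 0.92 and 0.86) and Rsad2 is lower (r = -0.83), while the PBS hearts cluster between 266 and 306 CPM of Ifngr2.

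Beyond the 33, the wider interferon lists held 128 genes, of which 104 could be tested. With the GFP vector 21 were higher and 7 lower in tumour-bearing hearts (26.9%, against 28.2% of all genes). With the REV-ERBα vector 16 were higher and none lower (15.4%, against 7.23%), and between the tumour-bearing groups 8 were higher and 5 lower with REV-ERBα (12.5%, against 7.2%). Without tumour edgeR called 0 of 104 and in the interaction 0 of 104. These lists were drawn up with earlier results of these data known.

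Among 37 other interferon-stimulated genes 9 were higher and 3 lower in C26_GFP, against 14.2% and 14% of all genes. Ifi205, a DNA-binding member of the Ifi200 family next to Ifi204, rose by 1.802 ± 0.25 on the log2 scale with the GFP vector (edgeR adjusted p = 7.7e-06), from 4.21 ± 0.952 to 15.3 ± 3.53 CPM (SD, n = 4 and 10). Ifi204 rose by 0.97 ± 0.12 (adjusted p = 2.9e-06). The virus entry inhibitors Ifitm2 and Ifitm3 rose by 0.61 ± 0.08 and 0.55 ± 0.08 (adjusted p = 2.95e-06 and 1.54e-05). All 4 also rose in C26_REV-ERBa against PBS_REV-ERBa, by 1.53 ± 0.26, 0.92 ± 0.12, 0.43 ± 0.07 and 0.55 ± 0.08 (adjusted p = 0.000414, 2.43e-05, 0.000468 and 3.22e-05). Macrophage markers, whose sums are given above, moved in the same comparisons, and their part in these genes was not tested. Ifi203, of the same family as Ifi204, fell by 0.63 with the GFP vector (SE 0.16, adjusted p = 0.00387). Between the tumour-bearing groups Ifi203 and Ddx60 were higher with REV-ERBα (0.49 ± 0.12 and 0.55 ± 0.16 on the log2 scale, adjusted p = 0.0202 and 0.0355), and Ifitm2 and Tor3a were lower (-0.26 ± 0.06 and -0.18 ± 0.05, adjusted p = 0.0119 and 0.022).

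Of 11 other interferon gamma GTPases tested, 2 were higher with the GFP vector (14.2% of all genes were), Gbp6 (0.81 ± 0.23, edgeR adjusted p = 0.0083) and Gbp10 (1.19 ± 0.27, adjusted p = 0.00157). Both also rose in C26_REV-ERBa against PBS_REV-ERBa (adjusted p = 0.0174 and 0.0144), where 5 of 11 were higher, against 4.05% of all genes. The other 3, Tgtp1, Iigp1 and Tgtp2, which were picked after their values were seen, rose by 1.47, 0.57 and 1.21 on the log2 scale (adjusted p = 0.0285, 0.0434 and 0.0493). Gbp10 went from 11.2 ± 0.871 to 25.7 ± 6.94 CPM (SD, n = 4 and 10) with the GFP vector, while its relatives Gbp3 and Gbp4 had log2 fold changes of -0.81 and -0.10 in the same hearts.

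Of 16 nucleic acid sensing genes 3 were higher and 2 lower with the GFP vector, against 14.2% and 14% of all genes. The adaptor Myd88 rose by 0.55 ± 0.12 (edgeR adjusted p = 0.000911) and Tmem173, which encodes STING, by 0.68 ± 0.16 (adjusted p = 0.00252), and Mavs fell by 0.23 (SE 0.08, adjusted p = 0.0213). Eif2ak2, the RNA-activated kinase PKR, fell by 0.32 (SE 0.11, adjusted p = 0.032), and Samhd1, picked after its value was seen, rose by 0.25. Between the tumour-bearing groups Myd88 was lower with REV-ERBα (-0.29 ± 0.08, adjusted p = 0.0361) and Eif2ak2 was higher (0.29 ± 0.09, adjusted p = 0.0375). Of 15 other antigen processing and class I genes tested, H2-T23 (Qa-1) rose by 0.62 ± 0.12 and the peptide-loading chaperone Tapbp by 0.22 ± 0.05 with the GFP vector (adjusted p = 0.000405 and 0.00183). Erap1, which trims peptides, fell by 0.31 (SE 0.07, adjusted p = 0.00191). Erap1 was higher in C26_REV-ERBa than in C26_GFP by 0.22 ± 0.06 (adjusted p = 0.0203), and so was Cd1d1, a lipid-presenting molecule, by 0.72 ± 0.18 (adjusted p = 0.022). Of 7 class II presentation genes tested 1, the protease Ctss, was higher with the GFP vector (0.77 ± 0.26, adjusted p = 0.0268), against 14.2% of all genes.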

How the data were processed

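Total RNA of 29 mouse hearts was sequenced without poly-A selection from stranded libraries, per the labels' protocols. The authors deposited raw read counts per gene and the counted exon length of each gene (the other column used). Tools listed without roles in the submitters' processing notes are STAR 2.4.2a and DESeq2 1.24.0, with the build mm10. For the counting tool and its strand setting, the sources used here give nothing. Starts were raised by 1, since 10881 of 19403 genes then matched the RefSeq start and 688 did without. A single column (1) of deposited counts matched no label and was not used.

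Genes passing edgeR's filter (minimum count 10, total 15) were scaled by TMM and fitted over all 4 groups with edgeR 4.0.16 (quasi-likelihood test, Benjamini-Hochberg over 12928 genes, threshold 0.05) in R 4.3.3. The fit was tested on simulated data. CPM are TMM-scaled. Errors of fold changes are standard errors and intervals are 95%. Alternatives were RLE and upper-quartile scaling, DESeq2 1.42.0, other filters, a robust fit, a replicate block, only the groups compared, a looser threshold, thinning, and leaving out libraries. Genes called in any comparison are given by heart in the PBS groups and by lowest, median and highest heart in the C26 groups. In a role with fewer than 2 such genes, the 2 with the smallest p in the comparisons with C26_GFP are also given. Ifih1 is given for the C26 groups only. Other pathway genes are named at most 4 per list and comparison, smallest p first, and 1 gene of the receptor list is not reported here. The members and lists were chosen with earlier results of these data known.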

Additional observations from a re-analysis of the deposited data

Results flagged for a closer look

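A heart stood apart from the rest of its group for 8 of 132 combinations of gene and group, by the gap to the nearest heart relative to the group's range on the log2 scale (Dixon's 95% limit). Chance flags about 1 in 20 such groups. A single flag was high: Ifi27l2a stood at 71.7 CPM in C26_REV-ERBa heart 9, from 448 counts, against 15.1 to 21.7 CPM in the other hearts. That heart has high atrial markers, but so have hearts 4 and 10 of its group, which lie within the range of the others. Its summed B cell and adipocyte markers were 8.64 and 567 CPM, against at most 2.37 and 317 CPM in the other hearts of the group. The part of any of these markers in its Ifi27l2a level was not tested. The 7 other flags were low. Irf1 stood at 11.3 CPM in C26_REV-ERBa heart 8, against 13.4 to 16.1 CPM. Irf7 stood at 9.01 CPM and Oas1a at 0.872 CPM (3 counts) in PBS_GFP heart 4, against 11.4 to 11.5 and 2.29 to 2.75 CPM. Xaf1 stood at 9.56 CPM in PBS_GFP heart 2, against 13.4 to 13.7 CPM, and at 6.96 CPM in PBS_REV-ERBa heart 3, against 11.9 to 14.5 CPM. In PBS_REV-ERBa heart 1 Ifi44 stood at 3.07 CPM (10 counts), against 7.66 to 10.3 CPM, and Psmb8 at 6.75 CPM, against 9.52 to 10.4 CPM.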

How the results depend on the processing

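With the GFP vector the tumour comparison gave 3 called genes of 33. It gave 5 at an adjusted p under 0.1, 1 without libraries above 10000000 counts, 5 without hearts with high atrial markers (2 of them shared with the main result), and 1 to 5 when each heart was left out in turn (1 without PBS_GFP heart 1, 5 without C26_REV-ERBa heart 9). With the REV-ERBα vector it gave 3, and 0 with a replicate block, 5 at an adjusted p under 0.1, 0 without hearts with high atrial markers, 5 with only the groups compared, and 0 to 5 with each heart left out (0 without PBS_REV-ERBa heart 1, 2 or 3, 1 without PBS_REV-ERBa heart 4 or 5 or C26_REV-ERBa heart 2, and 5 without C26_GFP heart 3). Between the tumour-bearing groups it gave 0, and 2 with DESeq2, 3 at an adjusted p under 0.1, 5 without libraries above 10000000 counts, 2 after thinning, 4 without hearts with high atrial markers, and 0 to 5 with each heart left out (5 without C26_GFP heart 6, 4 without C26_REV-ERBa heart 9, 2 without C26_GFP heart 3 or 9, and 1 without C26_REV-ERBa heart 2 or 5). The relation with Ifngr2 in C26_REV-ERBa gave 1 called gene by r and 0 by Spearman's rho, an alternative chosen after seeing the data. Over all 12927 genes r called 195 there and rho called 0. The cause of these shifts was not tested. Over all genes the GFP-vector comparison called 3642 genes and 1972 without libraries above 10000000 counts. It called 4612 at an adjusted p under 0.1 and 3022 without hearts with high atrial markers. Without PBS_GFP heart 1 it called 2790 and without C26_REV-ERBa heart 9 it called 3800. The REV-ERBα-vector comparison called 935, and 450 with the replicate block, 1593 at an adjusted p under 0.1 and as few as 476 with 1 heart left out (PBS_REV-ERBa heart 5). It called 666 without hearts with high atrial markers, 763 with only the groups compared and 893 without C26_GFP heart 3. Without PBS_REV-ERBa heart 1, 2 or 3 it called 653, 521 and 772. The comparison of tumour-bearing groups called 931, and 291 with the replicate block, 327 with only the groups compared, 1709 at an adjusted p under 0.1 and 295 to 1778 with 1 heart left out (C26_REV-ERBa hearts 7 and 9). It called 1233 of 12928 genes with DESeq2, 1317 of 13140 without libraries above 10000000 counts and 628 of 12127 after thinning. Without hearts with high atrial markers it called 1097 of 12790, and without C26_GFP heart 6 it called 1723 of 12899. For the interaction edgeR called 0 genes and DESeq2 15.

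The log2 fold change of Gbp4 with the GFP vector reversed to 0.32 without PBS_GFP heart 1 (range -0.32 to 0.32 over hearts left out), and that of Tap1 to -0.22 without hearts with high atrial markers and to -0.072 without PBS_GFP heart 2 (range -0.072 to 0.36). Replicate numbers are shared between groups, but only 5 of 32 same-numbered pairs correlated above 0.1 and 4 of 29 libraries correlated best with their own number, so the number was not taken as a pairing. With the replicate block the GFP-vector tumour comparison called 2 genes, of which 1, H2-K1, was among the 3 of the main result, while Gbp3 (adjusted p = 0.104) and Psmb10 (0.0622) were not called. The REV-ERBα-vector comparison called 0 (adjusted p = 0.11 for Stat2, 0.0639 for Gbp4 and 0.0982 for Tap1). Depth limits Mx1, Ifi44, Oas1a, Mx2, Dhx58 and Usp18, with as few as 1, 2, 3, 3, 5 and 6 counts in a library.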
